A study of Arabidopsis thaliana with 11 samples.

Results

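Triploid seedlings carrying the title code TFE were compared with diploid seedlings of the same Arabidopsis thaliana ecotype, C24, over 3 triploid and 2 diploid arrays of the 11 arrays in the series. The arrays were chosen by their title codes alone, and no measured value entered the choice. The diploids were labelled C24. The source label of the TFE triploids is C24 from a cross of a tetraploid (4x) with a diploid (2x), and the labels neither spell out the code nor say which parent was the mother. The other 6 arrays, 3 of triploids with the title code TME from a cross with the same source label and 3 of colchicine-derived tetraploids, entered the same fit, where they contribute to the pooled spread and to the filter on dim probe sets, and are described only where the TFE triploids differ from them. All groups shared the stock code N906 and were whole plants at developmental stage 1.02, grown on Murashige and Skoog agar with 16 h days at 21 C and 8 h nights at 18 C. The labels do not say how many plants were pooled for an array, nor whether replicates were sown apart. A p-value therefore sets a difference only against the scatter between arrays, pooled over all groups, and that scatter may be technical. The arrays of a group carry consecutive numbers in their titles, so that any effect of the order of handling and an effect of ploidy cannot be told apart.

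A triploid seedling carries 3 copies of every nuclear chromosome, received unequally from its parents, whereas the diploid carries 2. The genomes of the chloroplast and the mitochondrion are present in many copies, are inherited through the mother in Arabidopsis and are not part of the nuclear chromosome set. The chloroplast genome encodes core subunits of the photosystems, the cytochrome b6f complex, the ATP synthase and the NDH complex, together with part of the plastid ribosome and an RNA polymerase, and the remaining subunits of these complexes are encoded in the nucleus.

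Each ATH1 array reported 1 MAS5 signal per probe set, scaled by the authors so that the trimmed mean of every array was 100.01. More or less RNA per cell in total would thus not show, and every difference below is relative to the rest of the array. In these bulk samples, fewer cells of a type and less RNA per cell cannot be told apart. Of 22746 plant probe sets, 15075 lay above percentile 40 of their array on at least 2 of the 11 arrays and were tested. Differences are log2 of the TFE triploid signal minus log2 of the diploid signal, with the standard error (SE) of the limma fit, and adjusted p-values were corrected over all 15075 probe sets.

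TFE replicate 3 stood apart from all others and is named wherever it matters. Its dim end was raised: percentile 10 of the signal was 1.76 and 2.16 in the diploids, 1.85 and 2.33 in TFE replicates 1 and 2, and 6.47 in TFE replicate 3. The median of 27 probe sets for unspiked bacterial genes was 7.38 on that array and between 1.36 and 2.49 on the other 4 arrays of the comparison. It correlated with the other arrays at rank correlations of 0.861 to 0.88, against 0.942 to 0.973 among the other 10 arrays, and it was the highest or lowest of the 5 arrays for 69.2% of the probe sets tested. The actin 3' to 5' ratio, a sign of RNA quality, was 0.506 and 0.524 in the diploids and 0.559, 0.581 and 0.92 in the TFE triploids, and the corresponding ratios of GAPDH and ubiquitin overlapped between the groups. The geometric mean signal of 18 probe sets of spiked-in hybridisation controls was 157 and 321.5 in the diploids and 371.9, 594.4 and 627.5 in the TFE triploids. Every TFE array thus lay above both diploid arrays in the actin ratio and in the hybridisation controls.

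**Figure D1:**
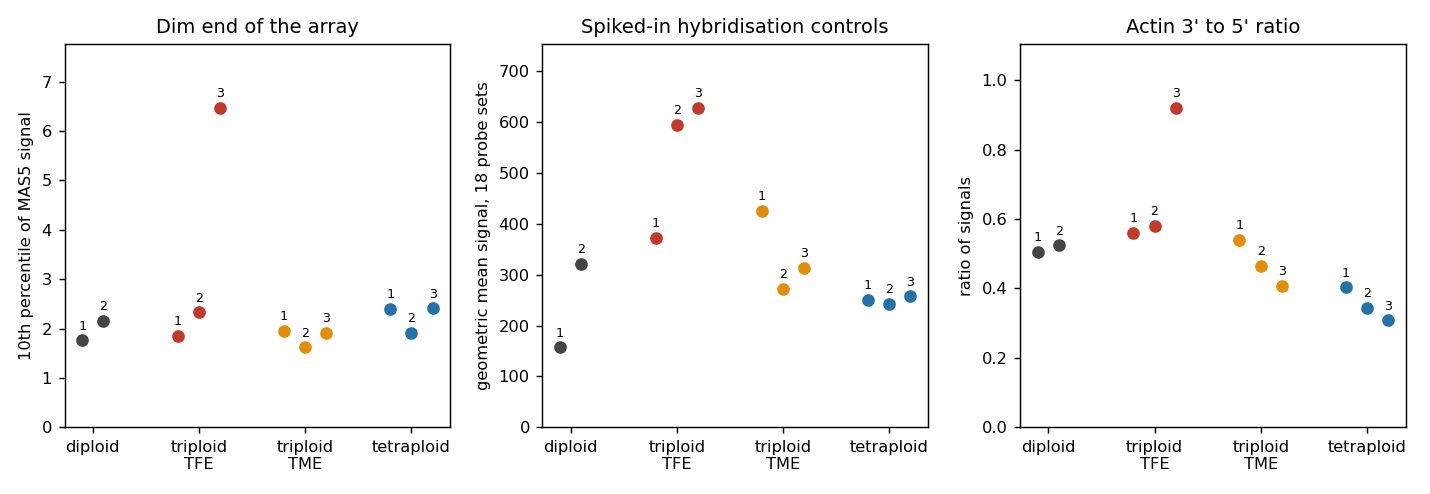
Percentile 10 of the MAS5 signal, the geometric mean signal of 18 hybridisation control probe sets and the actin 3' to 5' ratio of each of the 11 arrays, with the replicate number above each point. TFE replicate 3 has the highest value in all 3 panels (6.47, 627.5 and 0.92), and the 3 TFE arrays lie above both diploid arrays in the panels of the controls and of the actin ratio.

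With all 3 TFE arrays, no probe set differed between TFE triploids and diploids at an adjusted p under 0.05 (limma, 0% of 15075; smallest adjusted p = 0.057), while 1369 probe sets (9.08%) had an unadjusted p under 0.05, 678 higher (4.5%) and 691 lower (4.58%). Without TFE replicate 3, 3 probe sets passed (0.0199%): the chloroplast transcripts rpl33 and petG rose (0.0133% of all probe sets) and the nuclear gene EXGT-A3 fell (0.00663%). The unadjusted count was then 1084 (7.19%). These 3 calls rested on the setting as well: the count was 0 with no intensity trend, with the replicate number as a block, and with TFE replicate 2, TME replicate 3 or tetraploid replicate 2 also left out, and 23 with TFE replicate 1 also left out, which leaves 1 TFE array. Over 22 such changes of a setting or array, petG was called in 14, EXGT-A3 in 10 and rpl33 in 7. The count of 0 with all arrays became 6 without TFE replicate 1 and 4 without TME replicate 2, an array that contributes to this comparison through the pooled spread. The probe sets leaned neither way, with 7595 higher (50.4%) and 7480 lower (49.6%). The median SE was 0.22 with all arrays and 0.20 without TFE replicate 3. Median log2 differences of the 5 nuclear chromosomes lay between 0.003 on chromosome 3 and 0.022 on chromosome 2, and on no TFE array did a chromosome's median leave that of all nuclear genes by more than the -0.041 of chromosome 2 on replicate 3.

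EXGT-A3 (AT2G01850, chromosome 2) encodes a xyloglucan endotransglucosylase, an enzyme that cuts and rejoins the xyloglucan chains tethering cellulose in the cell wall. Its signals were 498 and 517 in the diploids and 306, 266 and 223 in the TFE triploids. The groups did not overlap, and the highest TFE array lay well below the lower diploid array. The difference was -0.95 ± 0.13 (SE, adjusted p = 0.057) with all arrays, and without TFE replicate 3 the gene fell, with a difference of -0.83 ± 0.12 (adjusted p = 0.041). That call was lost with no intensity trend, with the replicate block and without TME replicate 3 or tetraploid replicate 2, among others. The mean signal was 329 ± 13.2 (SD, n = 3) in TME triploids and 317 ± 18.7 (SD, n = 3) in tetraploids, and neither group was distinguishable from the TFE triploids at this threshold (adjusted p = 0.42 and 0.35). In the same fit, which reuses the diploid arrays, the tetraploid difference from diploids was -0.68 ± 0.13 (adjusted p = 0.026) and that of TME triploids -0.62 ± 0.13 (adjusted p = 0.12).

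The chloroplast ribosomal gene rpl33 (ArthCp043), which encodes a protein of the large subunit, separated the groups as clearly. Its signals were 825 and 977 in the diploids and 1720, 1545 and 1521 in the TFE triploids, again without overlap. The difference was 0.83 ± 0.12 (adjusted p = 0.057) with all arrays and 0.86 ± 0.13 (adjusted p = 0.041) without TFE replicate 3. Signals averaged 958 ± 92.8 (SD, n = 3) in TME triploids and 936 ± 67.5 (SD, n = 3) in tetraploids, close to the diploid mean of 901 ± 107 (SD, n = 2). The TFE triploids were higher than the TME triploids by 0.74 ± 0.11 (adjusted p = 0.039) and higher than the tetraploids by 0.77 ± 0.11 (adjusted p = 0.0057), and without TFE replicate 3 these became 0.77 (adjusted p = 0.064) and 0.80 (adjusted p = 0.0057). The call against TME triploids was also lost after quantile normalization or median centring, with no filter, with no intensity trend, with only the arrays compared, with the hybridisation controls as a covariate, with the replicate block, and without any 1 diploid, TME or tetraploid array.

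The other gene called without TFE replicate 3, petG (ArthCp041), encodes a small subunit of the cytochrome b6f complex. Its signals were 228 and 215 in the diploids and 436, 406 and 161 in the TFE triploids. Replicates 1 and 2 lay above both diploid arrays and replicate 3 below them. The difference was 0.93 ± 0.12 (adjusted p = 0.024) without TFE replicate 3 and 0.46 ± 0.30 (adjusted p = 0.62) with it.

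The chloroplast genome as a whole gave the broadest pattern. All 69 chloroplast genes measured, 1 probe set per gene, were higher in the TFE triploids, with a median log2 difference of 0.496 (range 0.04 to 2.07), against a median of 0.003 over all probe sets and 0.010 over 8063 nuclear genes. Of all probe sets 50.4% were higher. Without TFE replicate 3 the count of 69 and the median of 0.496 were the same, while 51.7% of all probe sets were higher. With all arrays 43 of the 69 were higher at an unadjusted p under 0.05, where 4.5% of all probe sets were, and 44 had 3 TFE arrays above both diploid arrays, where 11.9% of all probe sets did. Leaving out TFE replicate 3 gave 39 (3.85% of all probe sets) and 47 (19%). At the adjusted threshold 0 were called with all arrays and 2 without TFE replicate 3, rpl33 and petG.

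Array by array, the median deviation of the 69 genes from the diploid mean was -0.222 and 0.222 on the diploid arrays and 0.415, 0.600 and 0.629 on the TFE arrays. It was 0.368, -0.077 and 0.230 on the TME arrays and 0.235, -0.049 and 0.108 on the tetraploid arrays. The diploid arrays thus lay 0.444 apart, which is close to the size of the difference itself, and the median was 0.32 without diploid replicate 1 and 0.72 without diploid replicate 2. Over the 5 arrays the chloroplast medians had the same order as the hybridisation controls. With the control level as a covariate over all 11 arrays, the chloroplast median became -0.0019. The part of the hybridisation signal in the chloroplast result was not tested further.

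Signal strength was also set beside it. Among probe sets with a mean signal from 1000 to 3000, the median difference was 0.482 for 20 chloroplast genes and 0.029 for 138 nuclear genes. From 300 to 1000 it was 0.547 for 23 chloroplast genes and -0.075 for 664 nuclear genes. At 3000 and over it was 0.471 for 15 chloroplast genes and 0.185 for 17 nuclear genes, of which 16 were higher in the TFE triploids. Nuclear genes of like signal were thus shifted less than chloroplast genes in each of these ranges, and in the brightest range they were shifted in the same direction.

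**Figure D2:**
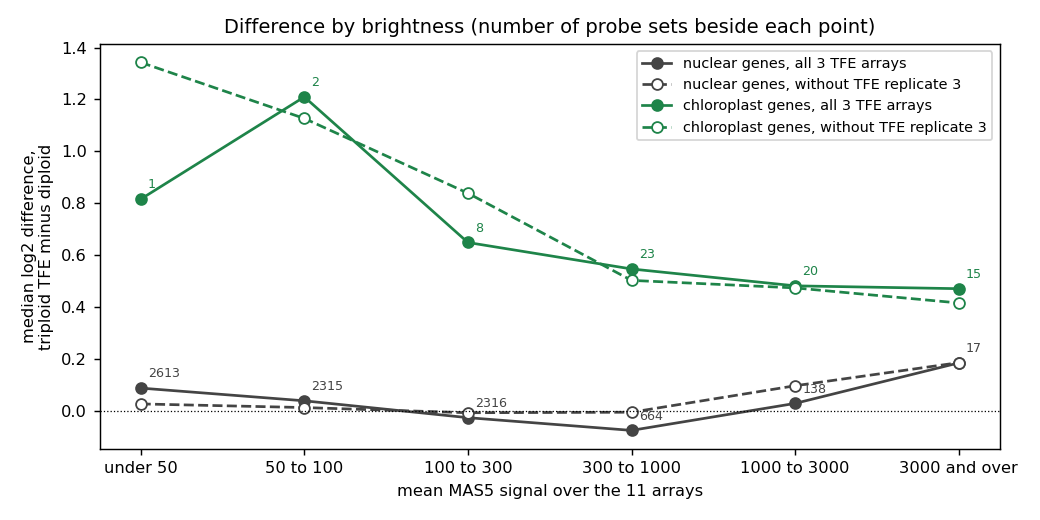
Median log2 difference, TFE triploid minus diploid, of nuclear (grey) and chloroplast (green) genes in ranges of the mean signal over the 11 arrays, with all TFE arrays (filled) and without replicate 3 (open); numbers give the probe sets in each range. With all arrays, from a signal of 300 upwards, the chloroplast medians lie between 0.471 and 0.547 and the nuclear medians between -0.075 and 0.185. Without replicate 3 these ranges are 0.416 to 0.503 and -0.005 to 0.186. The 2 dimmest ranges hold 3 chloroplast genes in all.

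By complex, photosystem I had the highest median, 0.773 over 5 genes, followed by the NDH complex with 0.641 over 10 and photosystem II with 0.574 over 15. The ATP synthase had 0.490 over 6 genes, the small ribosomal subunit 0.462 over 8, the cytochrome b6f complex 0.457 over 6 and the large ribosomal subunit 0.388 over 7. The plastid RNA polymerase, which transcribes most photosynthesis genes of the chloroplast, had the lowest, 0.232 over 4 genes. Leaving TFE replicate 3 out changed the order between the ends: photosystem I had 0.762, the cytochrome b6f complex 0.619, the NDH complex 0.615, photosystem II 0.509, the large ribosomal subunit 0.501, the ATP synthase 0.467, the small ribosomal subunit 0.456 and the RNA polymerase 0.181. These orders are a description, and differences between complexes were not tested.

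**Figure D3:**
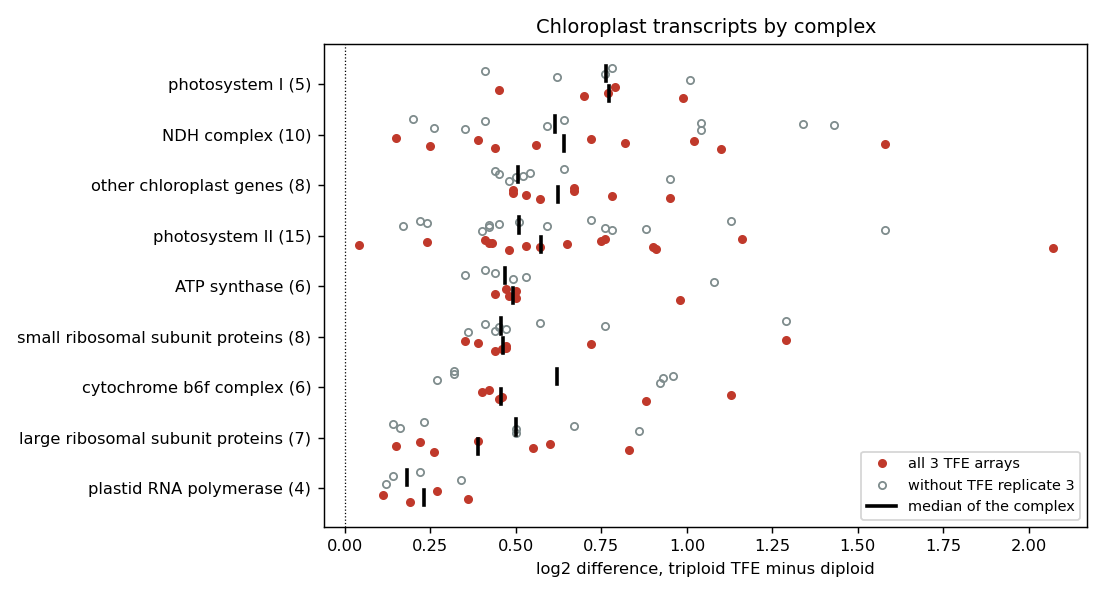
Log2 difference, TFE triploid minus diploid, of each of the 69 chloroplast genes by complex, with all TFE arrays (filled) and without replicate 3 (open); bars mark the median and the number of genes stands in parentheses. Every point lies above 0, and with all arrays photosystem I has the highest median (0.773) and the plastid RNA polymerase the lowest (0.232).

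Within photosystem I, which passes electrons from plastocyanin to ferredoxin, all 5 genes had the 3 TFE arrays above both diploid arrays, as did 11.9% of all probe sets. The small subunit gene psaJ had signals of 1319 and 1889 in the diploids and 2407, 4226 and 3026 in the TFE triploids, a difference of 0.99 ± 0.20 (adjusted p = 0.17). For psaI, another small subunit, the signals were 1353 and 1921 against 2203, 2797 and 2891, a difference of 0.70 ± 0.19 (adjusted p = 0.39). The reaction centre genes psaA and psaB differed by 0.79 and 0.45.

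In photosystem II, the complex that splits water, 11 of 15 genes had the 3 TFE arrays above both diploid arrays, against 11.9% of all probe sets. The largest difference of any chloroplast gene was that of psbN, which encodes a factor for the assembly of the complex and lies on the strand opposite its neighbours psbB, psbT and psbH. Its signals were 38.7 and 65.2 in the diploids and 187, 121 and 415 in the TFE triploids, a difference of 2.07 ± 0.42 (adjusted p = 0.17) with all arrays and 1.58 (adjusted p = 0.16) without TFE replicate 3. The highest of the TFE signals came from replicate 3, and the mean was 52.1 ± 16.2 (SD, n = 3) in TME triploids and 49.6 ± 11.4 (SD, n = 3) in tetraploids, as low as in diploids. The small subunit gene psbI had signals of 1057 and 1267 against 1617, 1869 and 1973, a difference of 0.65 ± 0.13 (adjusted p = 0.17). At the other end, psbJ differed by 0.04, or 0.17 without TFE replicate 3, with TFE signals of 629, 481 and 419 and diploid signals of 411 and 583.

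The NDH complex returns electrons from ferredoxin to the plastoquinone pool. Its subunit gene ndhG had signals of 227 and 197 in the diploids and 493, 654 and 775 in the TFE triploids, a difference of 1.58 ± 0.28 (adjusted p = 0.15), and 1.43 (adjusted p = 0.16) without TFE replicate 3. For ndhC the signals were 682 and 818 against 1178, 1151 and 1371, a difference of 0.72 ± 0.13 (adjusted p = 0.15). Both were free of overlap. The smallest difference of the complex was that of ndhA, 0.15.

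In the cytochrome b6f complex, petD had signals of 48.0 and 56.2 in the diploids and 107, 95.6 and 145 in the TFE triploids, a difference of 1.13 ± 0.24 (adjusted p = 0.21). The gene of the small subunit petN had 117 and 112 against 191, 245 and 201, a difference of 0.88 ± 0.22 (adjusted p = 0.36). Among ATP synthase genes, atpI differed by 0.98 ± 0.35 (adjusted p = 0.48) and atpB, for the catalytic subunit, by 0.50 ± 0.16 (adjusted p = 0.43). The atpB difference became -0.04 with the hybridisation controls as a covariate.

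The ribosomal genes rps14 and rps18 encode proteins of the small subunit. Signals of rps14 were 45.1 and 30.7 in the diploids and 79.0, 106 and 90.0 in the TFE triploids, a difference of 1.29 ± 0.25 (adjusted p = 0.16). Those of rps18 were 184 and 203 against 368, 290 and 306, a difference of 0.72 ± 0.14 (adjusted p = 0.17). Neither overlapped, and both differences moved by less than 0.05 without TFE replicate 3. In the large subunit, rpl32 differed by 0.55 ± 0.16 (adjusted p = 0.42). Of the polymerase genes, rpoC1 differed by 0.36 ± 0.18 (adjusted p = 0.57) and rpoA by 0.27 ± 0.20 (adjusted p = 0.66). Genes outside these complexes included matK, a maturase for introns, with 0.53 ± 0.17 (adjusted p = 0.43), and clpP, a protease subunit, with 0.49 ± 0.15 (adjusted p = 0.43). With the hybridisation controls as a covariate, rpoC1, rpoA and clpP turned to -0.08, -0.10 and -0.05.

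Chloroplast genes are transcribed in groups of neighbours, and 41 of the 69 genes were placed in 10 such groups from textbook knowledge after their values had been seen, so the groups are a description with no test. The psbB group had a median of 1.02 over 6 genes but ranged from 0.40 for petB to 2.07 for psbN. Since psbN lies on the opposite strand, it was placed there by position only. The highest of the other genes in that group was psbB with 1.16. The group from petL to rps18, which holds petG, psaJ, rpl33 and rps18, had a median of 0.72 with a range of 0.45 to 0.99. The lowest medians were 0.27 for the 7 genes from rps19 to rpoA and 0.19 for rpoB, rpoC1 and rpoC2. Members of a group were thus far from equal, as in psaA, psaB and rps14 with 0.79, 0.45 and 1.29.

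**Figure D4:**
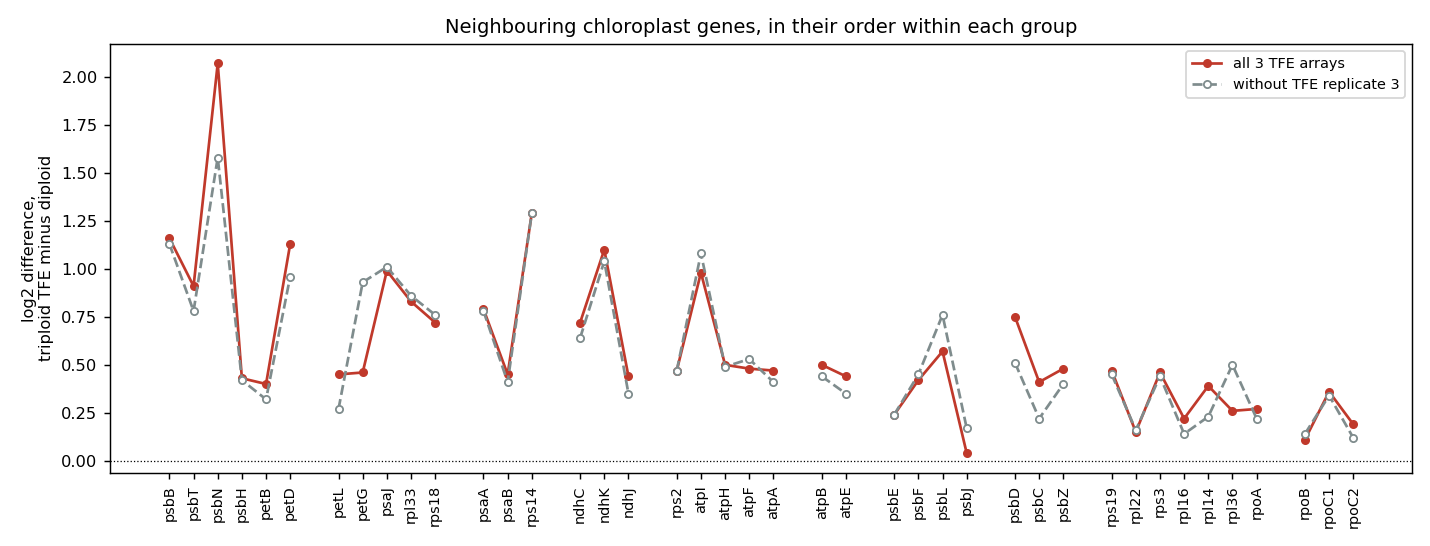
Log2 difference, TFE triploid minus diploid, of 41 chloroplast genes in 10 groups of neighbours, in gene order within a group, with all TFE arrays (filled) and without replicate 3 (open). With all arrays the psbB group spans 0.40 to 2.07, the highest being psbN, which lies on the opposite strand. The group from petL to rps18 lies between 0.45 and 0.99 with all arrays, and the rpoB group lies between 0.11 and 0.36.

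Nuclear genes of photosynthesis, only some of whose products join the same complexes, were shifted less. Of 11 measured of the 61 listed, 10 were higher and 1 lower, with a median of 0.213, or 0.161 without TFE replicate 3, and 0 were called. Of all probe sets 50.4% were higher, but so were 16 of the 17 nuclear genes with a mean signal of 3000 and over, with a median of 0.185. Several of the 11, such as RCA and LHCB4.1, were that bright, so the count may not be particular to photosynthesis. LHCB4.1, an antenna protein of photosystem II, had signals of 4353 and 5418 in the diploids and 5468, 6057 and 6211 in the TFE triploids, a difference of 0.28 ± 0.13 (adjusted p = 0.55) that became -0.05 after quantile normalization and -0.08 with the hybridisation controls as a covariate. LHCB4.3 of the same family went the other way: its signals were 497 and 576 against 442, 384 and 304, a difference of -0.52 ± 0.16 (adjusted p = 0.43). RCA, the activase of Rubisco, differed by 0.30 ± 0.16 (adjusted p = 0.57), and its groups overlapped. The 12 mitochondrial transcripts measured were split, 6 higher and 6 lower, with a median of 0.074, while without TFE replicate 3 there were 9 higher and 3 lower, with a median of 0.116. The most different of them, cox2, had signals of 12.9 and 16.2 in the diploids and 18.9, 22.9 and 90.1 in the TFE triploids, and its difference of 1.23 (adjusted p = 0.55) was 0.52 (adjusted p = 0.84) without TFE replicate 3. For nad4L the difference was 0.66 ± 0.40 (adjusted p = 0.60), which was 0.41 without TFE replicate 3 and became -0.35 with the hybridisation controls as a covariate.

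The tissue label of whole plants was checked against markers of green tissue and of roots. The summed signal of the 11 nuclear photosynthesis genes was 29297 and 38082.1 in the diploids and 36129.1, 39770.3 and 39667.7 in the TFE triploids. Of 13 root markers 3 were measured, with summed signals of 2729.3 and 3275.4 against 3348, 4150.4 and 3087.3. Nearly all of that sum came from PYK10, a beta-glucosidase of root endoplasmic reticulum bodies, with signals of 2666 and 3211 against 3257, 4070 and 3052. Its difference was 0.23 ± 0.14 (adjusted p = 0.60) with overlapping groups, and 0.32 (adjusted p = 0.66) without TFE replicate 3, where the groups did not overlap. EXPA7, an expansin of root hair cells, had signals of 31.2 and 27.3 against 28.6, 33.2 and 7.79, and its difference of -0.58 became 0.08 without TFE replicate 3. EXPA18, another expansin of the list, had 32.3 and 37.0 against 62.5, 46.9 and 27.4, and its difference of 0.32 (adjusted p = 0.74) became 0.65 (adjusted p = 0.57) without TFE replicate 3, again with no overlap. Without that array all 3 root markers were thus higher in the TFE triploids, 2 of them at an unadjusted p under 0.05, where 3.85% of all probe sets were. The seed and flower marker lists had 0 members among the named probe sets and were not measured. The part of tissue composition in the results was not tested.

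Other nuclear genes were ranked by p-value where arrays did not overlap, none lay at the floor and the brighter group mean was above 85.3. Dimmer genes, such as ORA47 described below, were left out of this ranking. The genes higher in the TFE triploids were led by AT4G17470. Its signals were 103 and 106 in the diploids and 159, 196 and 175 in the TFE triploids, a difference of 0.75 ± 0.15 (adjusted p = 0.16). ZW9 (AT1G58270) had signals of 437 and 389 against 673, 688 and 543, a difference of 0.61 ± 0.13 (adjusted p = 0.18), and 0.72 (adjusted p = 0.066) without TFE replicate 3. These genes did not overlap between the groups, by the rule that chose them.

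BGLU44, of the beta-glucosidase family, had signals of 618 and 713 in the diploids and 937, 1068 and 972 in the TFE triploids, a difference of 0.58 ± 0.12 (adjusted p = 0.21). PORB, which makes chlorophyllide in the light during chlorophyll synthesis, had 1480 and 2026 against 2217, 2780 and 2884, a difference of 0.59 ± 0.15 (adjusted p = 0.36). The chromatin protein gene 3xHMG-box2, whose product binds chromosomes in mitosis, had 109 and 143 against 175, 200 and 219, a difference of 0.66 ± 0.18 (adjusted p = 0.39). AT5G47390, AT3G22440, AT1G61740 and AT5G62130 differed by 0.60, 0.49, 0.66 and 0.63, with adjusted p-values from 0.36 to 0.41. Of the 10 genes higher chosen by these conditions, AT5G15780 had the largest difference, 2.09 ± 0.48 (adjusted p = 0.28), or 1.61 without TFE replicate 3. Its signals were 12.4 and 25.8 against 45.8, 65.4 and 147. The TFE mean of 86.0 lay just above the brightness cut of 85.3. TFE replicates 1 and 2 both lay below that cut, so the gene met it only through TFE replicate 3. Both of its diploid signals lay below percentile 40 of their array, so the size of this difference is uncertain.

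Further large positive differences at an unadjusted p under 0.01 were those of AT3G45740 (1.09), AT3G23900 (0.94), AT5G52190 (0.85), AT5G16280 (0.80) and AT1G32810 (0.78). In AT3G23900, AT5G52190, AT5G16280 and AT1G32810 the highest signal was that of TFE replicate 3, and without it these became 0.56, 0.58, 0.52 and 0.51.

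Of the genes lower in the TFE triploids after EXGT-A3, AT1G43860 had signals of 147 and 175 in the diploids and 102, 79.0 and 87.6 in the TFE triploids, a difference of -0.85 ± 0.17 (adjusted p = 0.17). TBL26, of the trichome birefringence-like family, which acetylates cell wall polysaccharides, had 140 and 240 against 88.7, 89.5 and 90.8, a difference of -1.03 ± 0.22 (adjusted p = 0.19). The diploid arrays of TBL26 lay far apart and its TFE arrays close together. AT1G04770, AT4G34950, AT3G56360, AT2G39710, AT1G19450 and AT2G31810 differed by -0.58, -0.74, -0.83, -0.75, -0.59 and -0.56, with adjusted p-values from 0.28 to 0.39.

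AT3G07720 had signals of 244 and 230 in the diploids and 163, 120 and 60.3 in the TFE triploids, a difference of -1.16 ± 0.29 (adjusted p = 0.36), or -0.76 (adjusted p = 0.21) without TFE replicate 3. PPDK, which forms phosphoenolpyruvate from pyruvate, had 355 and 303 against 208, 214 and 85.3, a difference of -1.07 ± 0.30 (adjusted p = 0.41), or -0.64 without that array. AT1G10020 likewise moved from -1.44 to -0.82. In all 3 genes TFE replicate 3 was the lowest array, and the groups did not overlap without it. AT4G36700 had the largest negative difference of the genes named, -2.48 ± 0.78 (adjusted p = 0.43), with signals of 137 and 77.4 against 21.3, 27.0 and 11.0, and its TFE signals all lay below percentile 40 of their array.

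**Figure D5:**
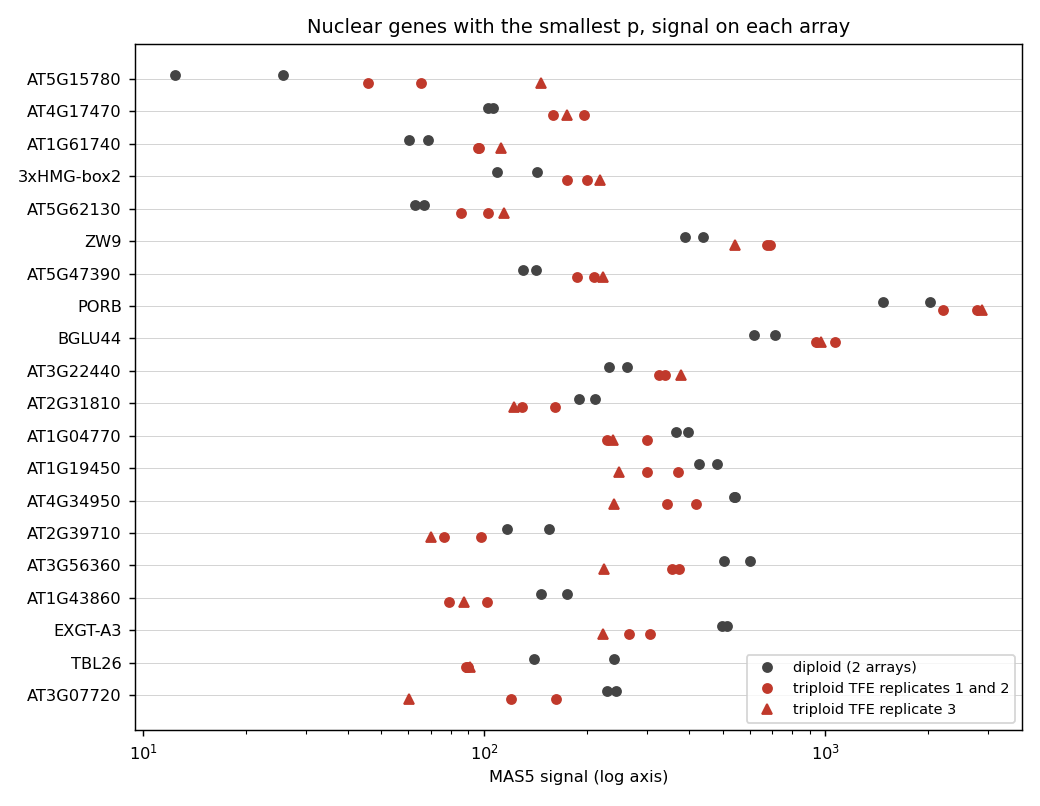
MAS5 signal, on a log axis, of 20 nuclear genes (10 higher and 10 lower in TFE triploids) on the 2 diploid arrays (grey) and the TFE arrays (red, with triangles for replicate 3). They had the smallest p-values among genes without overlap, with no array at the floor and a brighter group mean above 85.3. By the rule that chose them the groups do not overlap, and TFE replicate 3 is the farthest from the diploids in AT5G15780, AT3G07720 and AT3G56360 but not in ZW9.

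Differences of at least 1 were found mostly in dim probe sets. With all arrays 204 probe sets (1.35%) were higher by at least 1 and 234 (1.55%) lower by at least 1, and their median mean signals were 25.7 and 31.4. Without TFE replicate 3, 87 of the 204 (42.6%) and 78 of the 234 (33.3%) still differed by at least 1, and 9 of the 234 had lost or turned their sign. Some loss follows from choosing these probe sets with the array that is then left out, and the size of that effect was not tested. Leaving out TFE replicate 1 or 2 in the same way kept 93.1% and 90.7% of those higher and 91.0% and 87.6% of those lower. Over the probe sets, the median SD between arrays was 0.145 in diploids, 0.280 over 3 TFE arrays and 0.152 over TFE replicates 1 and 2.

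Flavonoid and anthocyanin genes, which make pigments that shield leaves from light, were lower in all 5 measured members of the 32 listed, where 49.6% of all probe sets were lower. Their median was -0.453, or -0.563 without TFE replicate 3, and 0 were called. DFR, the reductase that commits the pathway to anthocyanins, had signals of 55.7 and 73.7 in the diploids and 36.2, 47.0 and 37.2 in the TFE triploids, a difference of -0.68 ± 0.24 (adjusted p = 0.48). The flavonoid glucosyltransferase gene UGT78D2 had 174 and 175 against 166, 102 and 122, a difference of -0.45 ± 0.18 (adjusted p = 0.51). These were the 2 of the 5 genes in which all TFE arrays lay below both diploid arrays, as they did in 1614 of all 15075 probe sets. Without TFE replicate 3 it was 4 of the 5, and 2499 of all probe sets.

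In cell wall lists, 5 of the 7 measured xyloglucan endotransglucosylases were lower and 2 higher, with a median of -0.06, or -0.235 without TFE replicate 3, and EXGT-A3 was the only one called, without TFE replicate 3. XTH20 had signals of 66.5 and 39.9 against 53.0, 78.2 and 110, a difference of 0.58 ± 0.29 (adjusted p = 0.56) with overlapping groups, or 0.32 without that array. Of 4 measured alpha-expansins, proteins that loosen the wall, 2 were higher and 2 lower, with a median of 0.108, or 0.172 without TFE replicate 3. EXPA15 had 123 and 145 against 167, 198 and 211, a difference of 0.52 ± 0.15 (adjusted p = 0.41). EXPA8 differed by 0.23 ± 0.18 (adjusted p = 0.68). EXPA4 and EXPA9 differed by -0.02 and -0.01, with overlapping groups.

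Among genes of touch, wounding and early stress, 4 of 6 measured members were higher, with a median of 0.135 and 0 called, and without TFE replicate 3 it was 3 of 6, with a median of 0.086. STZ, a zinc-finger repressor of stress responses, had signals of 70.4 and 34.6 in the diploids and 66.3, 132 and 116 in the TFE triploids, a difference of 1.03 ± 0.36 (adjusted p = 0.48) with overlapping groups. AR781 had 34.2 and 33.3 against 42.4, 58.6 and 40, a difference of 0.46 ± 0.23 (adjusted p = 0.56). ORA47, an AP2/ERF transcription factor linked to jasmonate that was singled out after its values were seen, had 23.9 and 10.2 against 39.8, 99.2 and 52.5, a difference of 1.92 ± 0.36 (adjusted p = 0.16). Both diploid signals of ORA47 lay below percentile 40 of their array. AT3G15450, from the list of dark and sugar starvation genes, had 140 and 162 against 208, 280 and 236, a difference of 0.67 ± 0.20 (adjusted p = 0.42). AKINBETA1 of that list differed by 0.35 ± 0.29 (adjusted p = 0.69), or 0.11 without TFE replicate 3. MCCA, the remaining measured member, differed by -0.16 ± 0.53 (adjusted p = 0.93), or 0.60 without that array.

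Histone genes had 5 of 6 measured members higher, with a median of 0.197, or 0.096 without TFE replicate 3, and 0 called. HIS1-3, a linker histone induced by drought, had signals of 55.3 and 38.8 against 58.1, 78.9 and 73.8, a difference of 0.59 ± 0.21 (adjusted p = 0.49), and HON4 differed by 0.33 ± 0.21 (adjusted p = 0.62), or 0.10 without that array. Of genes of DNA methylation, Polycomb and imprinting, 3 of 22 were measured. MPC had 40.4 and 55.3 against 54.4, 64.3 and 136, a difference of 0.73 ± 0.34 (adjusted p = 0.55), or 0.32 without TFE replicate 3. DME, a DNA glycosylase that removes methylcytosine, had 100 and 108 against 115, 87.4 and 190, and its difference of 0.26 became -0.05 without that array. AGL61 differed by -0.44 ± 0.61 (adjusted p = 0.82), or -0.32 without it, and its TFE signals all lay below percentile 40 of their array. The groups overlapped for each gene. Lists with fewer measured members were described by those members: GI of the circadian clock differed by -0.15, SIM and PRL of the cell cycle list by 0.14 and 0.25, and AT5G42310, from the list of nuclear genes for plastid RNA handling, by 0.14. The signs of GI and PRL turned without TFE replicate 3, to 0.05 and -0.02, and SIM differed by 0.37 (adjusted p = 0.68), with no overlap.

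Of 4 unnamed probe sets, chosen by the same conditions, 247509_at had signals of 43.5 and 46.3 in the diploids and 91.9, 81.0 and 101 in the TFE triploids, a difference of 1.02 ± 0.18 (adjusted p = 0.15). A second, 263979_at, differed by 0.76 ± 0.15 (adjusted p = 0.16). Lower in the TFE triploids were 260427_at, with 363 and 389 against 243, 193 and 250, a difference of -0.73 ± 0.14 (adjusted p = 0.16), and 252123_at, which differed by -0.60 ± 0.12 (adjusted p = 0.18).

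Set against the other polyploids, the TFE triploids differed from TME triploids in 4 probe sets (0.0265%). Of these 1 was higher (0.00663%) and 3 were lower (0.0199%), and rpl33 was the only one with a gene name. From tetraploids they differed in 71 probe sets (0.471%), 13 higher (0.0862%) and 58 lower (0.385%). Without TFE replicate 3 these counts were 0 (0%) and 76 (0.504%), and 1117 probe sets (7.41%) then differed from TME triploids at an unadjusted p under 0.05. Against TME triploids the count was 0 with any 1 diploid, TME or tetraploid array left out and 6 without TFE replicate 1 or TFE replicate 2. Against tetraploids it was 126 without TFE replicate 1, 22 without tetraploid replicate 1 and 13 without tetraploid replicate 3. Both comparisons reuse the TFE arrays. Of the 13 probe sets higher than in tetraploids, 7 were chloroplast genes. These were rps18 (0.92, adjusted p = 0.0051), rpl33, psbN (2.11, adjusted p = 0.019), rps14 (1.15, adjusted p = 0.031), ndhC (0.60, adjusted p = 0.031), rpl32 (0.77, adjusted p = 0.031) and psaI (0.81, adjusted p = 0.050). Without TFE replicate 3, rps18, rpl33, psbN and rps14 were still called. The calls of ndhC, rpl32 and psaI were then lost (adjusted p = 0.067, 0.065 and 0.097). All 69 chloroplast genes had a median of 0.477 against tetraploids, with 66 higher where 49.8% of all probe sets were, and of 0.373 against TME triploids, with 67 higher where 50.1% were. The hybridisation controls were between 241.8 and 257.2 in tetraploids and between 271.7 and 424.9 in TME triploids, so the TFE arrays lay above all tetraploid arrays but overlapped the TME arrays. With the control level as a covariate, 0 probe sets were called against tetraploids.

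With all arrays 0 probe sets were called against diploids, so no gene called lower in TFE triploids than in tetraploids could be called there too. The differences of some from both groups are given side by side. PUB19, a U-box ubiquitin ligase, differed from tetraploids by -2.37 (adjusted p = 0.004) and from diploids by 0.17 (adjusted p = 0.89), with signals of 44.4 and 38.2 in the diploids and 39.2, 80.9 and 31.2 in the TFE triploids. With TFE replicate 3 left out these became -2.08 (adjusted p = 0.0053) and 0.45 (adjusted p = 0.82). AT2G20670 differed from tetraploids by -1.76 (adjusted p = 0.018) and from diploids by 0.09, and without TFE replicate 3, its lowest TFE array, by -1.28 (adjusted p = 0.0047) and 0.57 (adjusted p = 0.56), with both other TFE arrays above the diploids. AT3G07350 differed from tetraploids by -1.30 (adjusted p = 0.002) and from diploids by 0.26, or 0.21 without that array, and its groups did not overlap. ORA47, AT3G15450 and AR781 differed from tetraploids by -2.17 (adjusted p = 0.0073), -1.30 (adjusted p = 0.0045) and -1.16 (adjusted p = 0.019). Named genes here outside the lists were chosen after their values were seen.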

How the data were processed

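Total RNA of 11 whole-plant samples was labelled with biotin and read on Affymetrix ATH1 arrays, 1 sample per array. What the authors deposited is an intensity on a linear scale for every probe set; the submitters' processing notes name MAS5, without a version. The number of arrays limits the precision. Of 22810 probe sets, 64 controls were left out, and the plant signals were floored at 2.279 (percentile 10 of pooled values) and converted to log2. Group means were fitted with limma 3.58.1 in R 4.3.3 over all 11 arrays, with an intensity trend, 2-sided tests and Benjamini-Hochberg adjustment over 15075 probe sets (0.0597% of their values at the floor), with and without TFE replicate 3. The fit was tested on simulated data in which each probe set scattered independently and equally on all arrays. TFE replicate 3 departs from that, so the test does not show how the fit behaves with this array.

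Gene names were taken from the platform annotation, updated with the TAIR10.1 gene table: of the probe sets kept, 8161 had 1 gene, 293 several and 6621 none. Coordinates are not printed, since the array's genome build is not given in the sources used. The members and gene lists were chosen with earlier results of these data known, and lists are described by counts and medians, with no list test.

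Genes named were those called in either fit; the 10 nuclear genes higher, 10 lower and 6 organelle genes higher with the smallest p, among those whose arrays did not overlap, with no array at the floor and a brighter group mean above 85.3, the median signal of probe sets kept; the 6 largest rises and falls by those conditions at an unadjusted p under 0.01; up to 2 members per list; and 4 unnamed probe sets. Alternatives covered normalization, floor, filter, variance model, hybridisation controls, replicate numbers and arrays left out.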

Additional observations from a re-analysis of the deposited data

Results flagged for a closer look

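The chloroplast gene rpl33 differed between the triploid groups themselves: TFE triploids were higher than TME triploids by 0.74 on the log2 scale (limma, adjusted p = 0.039), with signals of 1720, 1545 and 1521 against a TME mean of 958, and by 0.77 (adjusted p = 0.064) without TFE replicate 3, and the call was lost with any 1 diploid, TME or tetraploid array left out.

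Spiked-in hybridisation controls, which the comparisons do not use, lay above the diploid level on every TFE array: the lowest TFE value was 371.9 and the higher diploid value 321.5. The actin 3' to 5' ratio did so too, with a lowest TFE value of 0.559 and a higher diploid value of 0.524.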

How the results depend on the processing

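Of 70 named probe sets, 60 kept the sign of their TFE minus diploid difference under every other setting that gave a value and with each array left out; 66 had a value under all 12 settings, and 4 had none with the filter at percentile 60. Calls against diploids with all arrays (0) became 6 with array weights, 3 with a filter at percentile 60, 3 with robust moderation, 2 after quantile normalization and 2 with log2(signal + 16). They ranged from 0 to 6 with 1 array left out: 6 without TFE replicate 1, 3 without TFE replicate 3 and 4 without TME replicate 2. Without TFE replicate 3, the 3 calls became 8 with no filter, 5 after quantile normalization, 5 with robust moderation, 1 with array weights, 1 with the hybridisation control covariate, 1 with only the arrays of the groups compared and 0 with no intensity trend. They ranged from 0 to 23 with a further array left out, 23 being without TFE replicate 1, which leaves 1 TFE array assumed to vary like the others. Calls against TME triploids (4) became 7 with array weights and 0 with the covariate, median centring, no filter, no trend, only those arrays, or quantile normalization, and ranged from 0 to 6 with 1 array left out. Calls against tetraploids (71) became 0 with the covariate, 20 with no filter, 3 with no trend and 19 with only those arrays, and ranged from 13 without tetraploid replicate 3 to 126 without TFE replicate 1, with 22 without tetraploid replicate 1. The causes were not tested.

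Replicate numbers did not pair the TFE arrays with those of any other group: deviations from the group means of same-numbered arrays correlated at 0.05 and -0.119 with diploids, at -0.058, 0.098 and 0.02 with TME triploids and at -0.042, 0.025 and 0.082 with tetraploids. Between TME triploids and tetraploids, which are not compared here, they correlated at 0.103, 0.121 and 0.14. With the replicate number as a block, calls against diploids were 0 with all arrays and 0 without TFE replicate 3, 0 against TME triploids and 77 against tetraploids.

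The chloroplast median of 0.496 was 0.48 after quantile normalization, 0.44 after median centring and -0.0019 with the covariate, and ranged from 0.32 to 0.72 with 1 array left out, 0.72 being without diploid replicate 2. Signs turned with the covariate in LHCB4.1 (-0.08), MPC (-0.12), AKINBETA1 (-0.42), atpB (-0.04), rpoC1 (-0.08), rpoA (-0.10), clpP (-0.05) and nad4L (-0.35). With 1 array left out, EXPA7 ranged from -0.97 to 0.08 and DME from -0.05 to 0.51, turning without TFE replicate 3, and AKINBETA1 from -0.14 to 0.84 and rpoA from -0.06 to 0.61, turning without diploid replicate 1. Signs also turned with array weights in DME (-0.01) and after quantile normalization in LHCB4.1 (-0.05). With 2 diploid arrays, differences near the median SE of 0.22 were not detectable, nor were those of dim probe sets, where TFE replicate 3 weighs most. Far larger differences were not called either with all arrays, such as -0.95 ± 0.13 for EXGT-A3 and 2.07 ± 0.42 for psbN. The absence of a call therefore does not show that a gene was unchanged.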

Other observations

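Of 18 gene families of like symbol, tabulated after the annotation was seen, those with the highest median and the lowest 2 medians are given, so their size is partly a matter of choice. In the highest, 10 of 12 IQD genes, which encode calmodulin-binding scaffold proteins, were higher in TFE triploids, with a median of 0.391, or 0.266 without TFE replicate 3. Set against the diploid mean, the family's median was -0.006 and 0.006 on the diploid arrays and 0.126, 0.337 and 0.663 on the TFE arrays. Of 26 UGT glycosyltransferases 20 were lower, with a median of -0.233, or -0.232 without that array. The diploid arrays were at 0.107 and -0.107 and the TFE arrays at -0.097, -0.217 and -0.292, so that TFE replicate 1 lay within the diploid range. Of 14 genes whose symbols begin with CYP, grouped by those letters alone, 11 were lower, with a median of -0.262, or -0.150 without TFE replicate 3. For these genes the diploid arrays were at 0.080 and -0.080 and the TFE arrays at -0.155, -0.145 and -0.358. Over all probe sets the median was 0.003. None of these genes was called with all arrays or without TFE replicate 3.

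The probe set for 25S ribosomal RNA had signals of 70.4 and 126.5 in the diploids and 199.4, 70.9 and 677.5 in the TFE triploids, the highest being TFE replicate 3.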
